A study of Homo sapiens with 12 samples.

Results

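The response of MDA-MB-468 cells to EPZ5676 was compared between the ALDH1+ and ALDH1- populations sorted from the same treatment. MDA-MB-468 is a human cell line of triple-negative breast cancer. Before sorting by flow cytometry, the culture lasted 10 days with EPZ5676 (pinometostat) at 0.5 µM, which inhibits the histone methyltransferase DOT1L, or with DMSO, the solvent. Crossing both treatments (DMSO or EPZ5676) with both sorted populations gives 4 groups, each with 3 libraries that the labels call biological replicates. All 12 of the 12 libraries of the series enter the contrast, which is the effect of EPZ5676 in ALDH1+ cells minus its effect in ALDH1- cells on a log2 scale. A positive value means a higher expression ratio of EPZ5676 to DMSO in ALDH1+ cells, and a negative value a higher ratio in ALDH1- cells. It is called the difference in response. All groups come from 1 cell line, and nothing in the labels says that the replicates were separate cultures, so the p-values measure the spread between these libraries.

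DOT1L places methyl groups on lysine 79 of histone H3, a mark found along transcribed genes, and is best known for sustaining leukemias with MLL fusions. ALDH1 enzymes oxidize aldehydes, among them retinal to retinoic acid, and cells with high ALDH1 activity are widely used as an enriched source of breast cancer cells with stem cell traits. A treatment that acts on such cells in another way than on the bulk of a tumor line would appear as a difference in response, whereas a shared change cancels in this contrast.

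Library totals ranged from 24348594 to 80195050 counts. The 2 deepest libraries were DMSO ALDH1+ replicate 3, with 58004508 counts, and EPZ5676 ALDH1+ replicate 2. Epithelial markers of the line were high in every library. KRT8, a keratin of simple epithelia, lay between 2570 and 3610 CPM (counts per 1000000 counts of a library), and EGFR, which this line carries at high level, between 4600 and 11500 CPM. ESR1, the estrogen receptor gene, lay between 6.83 and 10.8 CPM. Summed over a list of blood, endothelial and fibroblast markers, the level was 20.3 to 25.8 CPM in DMSO ALDH1+, 23.2 to 29.4 in DMSO ALDH1-, and with EPZ5676 40.4 to 41.9 in the positive and 36.4 to 47.5 CPM in the negative population. COL1A1, a fibrillar collagen chain, had the highest level of the list, up to 24.6 CPM. CSF1R reached 14.4 CPM, KDR 5.4, ITGAM 4.87 and CD14 3.61, and each was above 0 in all 12 libraries. PTPRC, VWF and CDH5 reached 0.911, 0.535 and 0.407 CPM. DCN and MS4A1 were at 0 in all 12 libraries, and CD3D, CD3E, CD68 and LYZ reached at most 0.0398 CPM. The part of these markers in the results was not tested.

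No gene passed the test of the difference in response. With edgeR's quasi-likelihood F test and the replicate number as a block, 0 of 16327 genes (0%) had a Benjamini-Hochberg adjusted p under 0.05, and the smallest adjusted p was 0.297. At an unadjusted p under 0.05 there were 1463 genes, 847 with a positive difference (5.19%) and 616 with a negative one (3.77%). limma-voom also called 0 genes, the DESeq2 Wald test called 25, and edgeR without a filter on low counts called 180. The sets of genes were unlike, since DESeq2 gave 8863 genes no adjusted p and the fit without a filter tested 33418. That unfiltered fit had an infinite prior degrees of freedom, so each gene took the spread of the general trend, against 9.8 prior degrees of freedom with the filter. Differences are therefore given by size, interval and value in each replicate number, and none of those named passed the adjusted test.

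The data bound most differences tightly. The 95% interval of the difference lay inside a 2-fold change in either direction for 13416 genes (82.2%) and inside 1.5-fold for 10793 (66.1%). Among the 8641 genes with a mean of at least 4 on the log2 CPM scale, 99.8% lay inside 2-fold and 96.5% inside 1.5-fold, with a median half-width of 0.21. Among the 3891 genes with a mean log2 CPM under 1, 29.6% lay inside 2-fold and the median half-width was 0.91. A 2-fold difference between the populations thus lay outside the interval of nearly every well expressed gene and inside that of most weakly expressed ones. Of the genes that changed at least 2-fold with EPZ5676 when both populations were averaged, 43.7% of the 1127 that rose and 54.3% of the 184 that fell had an interval inside 2-fold.

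**Figure D1:**
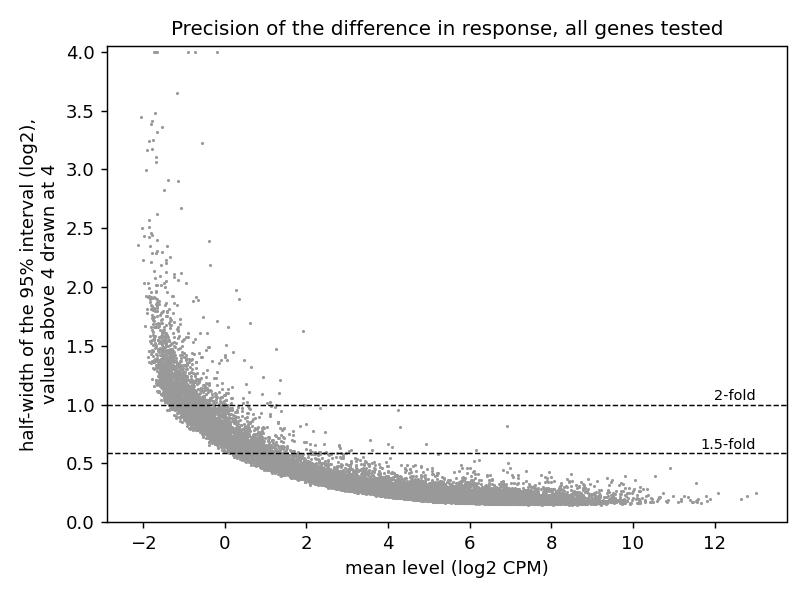
Half-width of the 95% interval of the difference in response (log2) against the mean level (log2 CPM) for the 16327 genes tested, 1 point a gene; dashed lines mark a 2-fold and a 1.5-fold half-width. Points sink with level, to a median of 0.21 among genes whose mean log2 CPM was at least 4.

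Both populations responded broadly and mostly alike. In ALDH1+ cells 3625 genes rose (22.2%) and 3195 fell (19.6%), and in ALDH1- cells 2837 rose (17.4%) and 2423 fell (14.8%). Of these, 4354 were called in both populations, 63.8% of the ALDH1+ calls and 82.8% of the ALDH1- calls, and 4352 of them changed in the same direction. A further 2466 genes passed in ALDH1+ and not in ALDH1-. Of these, 2234 had the same sign in ALDH1-, and 564 had an unadjusted p under 0.05 for the difference itself. The reverse held for 906 genes, of which 810 had the same sign in ALDH1+ and 194 an unadjusted p under 0.05 for the difference. With counts thinned to the smallest library, 3366 rose and 3010 fell in ALDH1+ against 2817 and 2294 in ALDH1-.

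Averaged over both populations, EPZ5676 changed 8140 genes (49.9%). Their difference in response, counted as positive where the change was larger in ALDH1+ cells, had a median of 0.06. It was 0.08, 0.02 and 0.07 in replicate numbers 1, 2 and 3, and 64.6% of these genes had the larger change in ALDH1+. For the 1127 genes that rose at least 2-fold, the median was 0.17, with 0.21, 0.06 and 0.15 by replicate number. For the 184 genes that fell at least 2-fold it was 0.23, with 0.40, 0.17 and 0.13. The larger response in ALDH1+ cells was therefore small beside the response itself, whose median size among the strong rises was 1.67 in ALDH1+ and 1.53 in ALDH1-.

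**Figure D2:**
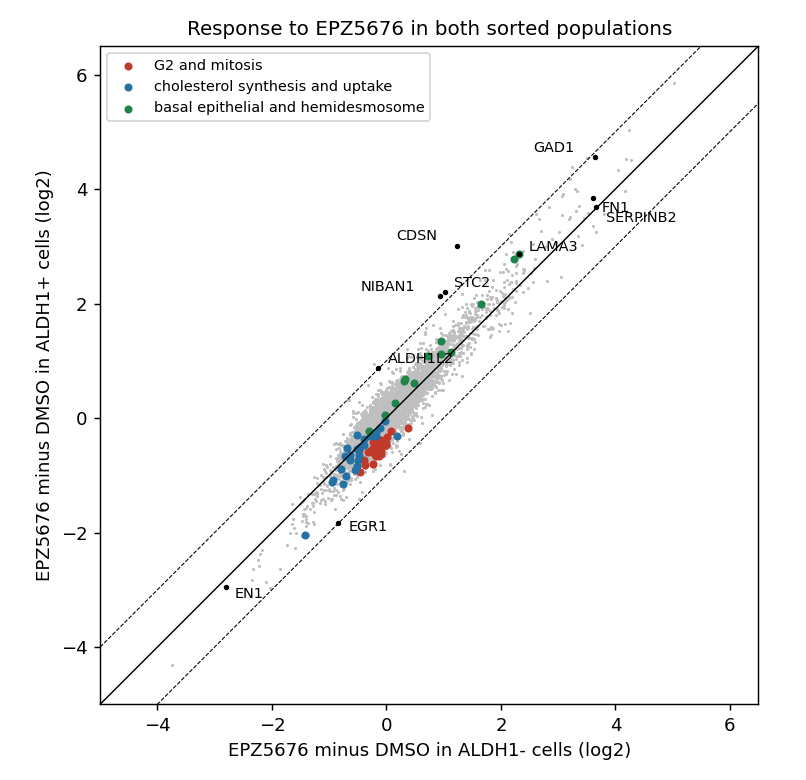
Log2 fold change of EPZ5676 over DMSO in ALDH1- cells (x axis) and ALDH1+ cells (y axis) for genes whose mean log2 CPM was at least 1, 1 point a gene; the solid line marks equal responses and dashed lines a 2-fold difference. Points follow the line of equal response, and the G2 and mitosis genes (red) sit below it near the origin, with a median of -0.54 in ALDH1+ and -0.18 in ALDH1-.

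Genes of G2 and mitosis, which build the spindle and drive chromosome segregation, had the median difference farthest from 0 of the 29 gene lists examined. All 32 differences were negative, with a median of -0.35 against 0.007 over all genes tested. The median effect was -0.54 in ALDH1+ and -0.18 in ALDH1-. In ALDH1+ cells 30 of 32 fell, beside 19.6% of all genes. In ALDH1- cells 11 fell and 1 rose, beside 14.8% and 17.4% of all genes. Of the 32 differences, 26 had an unadjusted p under 0.05, beside 3.77% of all genes on the negative side. In all 3 replicate numbers 25 were negative, beside 2103 of all genes (12.9%). The median difference by replicate number was -0.46, -0.47 and -0.25. Every one of the 32 intervals lay inside 2-fold, and the lowest bound was -0.93. In bulk RNA, fewer cells in a phase of the cycle and less RNA per cell cannot be told apart.

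CDK1, the kinase that drives entry into mitosis, had the smallest p of the list. In ALDH1- cells its level was 137, 170 and 199 CPM in DMSO replicates 1 to 3 and 132, 129 and 169 CPM in EPZ5676. In ALDH1+ cells it was 177, 205 and 280 CPM in DMSO and 103, 108 and 170 CPM in EPZ5676. The ALDH1+ groups do not overlap, since the lowest DMSO library is above the highest EPZ5676 library, whereas the ALDH1- groups do. Within each replicate number CDK1 was lower in EPZ5676 than in DMSO in both populations. CDK1 fell by 0.80 on the log2 scale in ALDH1+ (adjusted p = 5e-07) and by 0.23 in ALDH1- (adjusted p = 0.032). The difference was -0.57 ± 0.11 (SE; 95% interval -0.80 to -0.34; unadjusted p = 8.6e-05; adjusted p = 0.297). It was -0.72, -0.52 and -0.48 in the 3 replicate numbers.

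UBE2C, which supplies ubiquitin to the anaphase-promoting complex, had 85.7, 82.8 and 105 CPM in DMSO ALDH1- and 87.2, 80.7 and 86.5 CPM in EPZ5676 ALDH1-. ALDH1+ libraries had 81.8, 95.2 and 131 CPM in DMSO and 61.0, 57.8 and 81.5 CPM in EPZ5676. All 3 EPZ5676 ALDH1+ libraries were below all 3 DMSO ALDH1+ libraries, and the ALDH1- groups overlap. The ALDH1+ groups nearly touch, at 81.5 CPM in EPZ5676 replicate 3 and 81.8 CPM in DMSO replicate 1. UBE2C fell by 0.62 in ALDH1+ (adjusted p = 4.7e-05). Its effect in ALDH1- was -0.09, and the difference was -0.53 (-0.80 to -0.25; adjusted p = 0.297).

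Other members of the list spanned the apparatus of cell division. Among spindle checkpoint and kinetochore genes the difference was -0.44 for NDC80, -0.46 for NUF2, -0.53 for CENPA, the histone variant that marks centromeres, and -0.48 for TTK, a checkpoint kinase. CENPE, a kinetochore motor, rose by 0.37 in ALDH1- (adjusted p = 0.039), and its effect in ALDH1+ was -0.17. Among mitotic cyclins and kinases it was -0.35 for CCNA2, -0.42 for CCNB1, -0.30 for AURKA and -0.48 for AURKB. TOP2A, the topoisomerase that untangles sister chromatids, fell in both populations, by 0.82 in ALDH1+ and by 0.37 in ALDH1-. HMMR, which binds spindle microtubules, fell by 0.58 in ALDH1+ (adjusted p = 3.2e-05), and its effect in ALDH1- was -0.11. MKI67, the gene of a nuclear proliferation antigen, lay nearest to 0 at -0.07 (-0.48 to 0.34), with -0.51, -0.52 and 0.78 by replicate number. HMGB2, a chromatin protein of cycling cells named after its values were seen, had a difference of -0.44 (-0.63 to -0.25), with -0.42, -0.31 and -0.60.

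**Figure D3:**
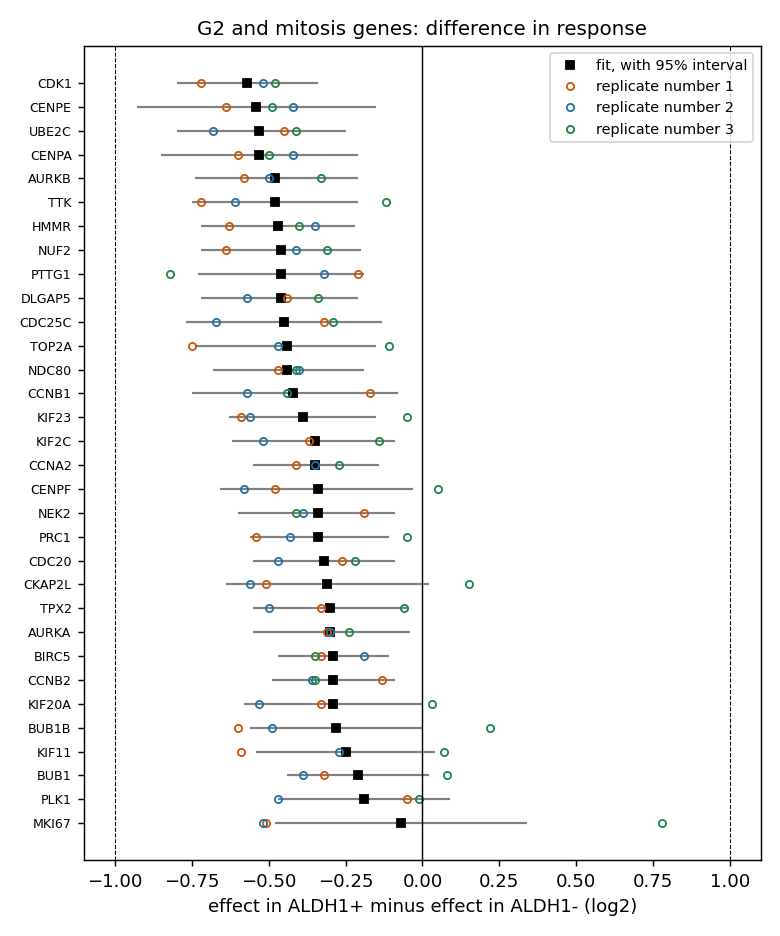
Difference in response (log2) of the 32 G2 and mitosis genes: squares with lines give the fitted value and its 95% interval, and open circles the value in each replicate number; dashed lines mark 2-fold. All squares lie left of 0, from -0.57 for CDK1 to -0.07 for MKI67, and every interval lies inside the dashed lines.

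The mean level of the 32 genes shows which groups made the difference. Relative to the mean of DMSO ALDH1-, it was -0.16, -0.03 and 0.19 in the DMSO ALDH1- replicates and -0.12, 0.06 and 0.34 in the DMSO ALDH1+ replicates, in log2 units. In EPZ5676 ALDH1- it was -0.13, -0.24 and -0.14. The EPZ5676 ALDH1+ values were -0.53, -0.61 and -0.19. EPZ5676 ALDH1+ replicates 1 and 2 had the lowest levels of the 12, and EPZ5676 ALDH1+ replicate 3 lay among the ALDH1- libraries. The median of ALDH1+ minus ALDH1- was 0.10 in DMSO and -0.27 in EPZ5676, so its sign turned with treatment. Under the 8 alternatives that kept all 12 libraries the median difference stayed between -0.37 and -0.34. Without EPZ5676 ALDH1- replicate 1 it was -0.28, and without replicate 3 of every group it was -0.50. The count with an unadjusted p under 0.05 was 9 of 32 with no replicate block and 16 of 32 without replicate 2 of every group. Of the list, 16 genes were called without the filter on low counts, 5 without replicate 3 of every group, and 2 by DESeq2, CDK1 and UBE2C. The adjusted p of CDK1 ranged from 2.4e-06 without the filter to 0.98 with no replicate block.

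Genes of DNA replication and S phase lay close to the value of all genes. Their median difference was -0.03, with -0.07, 0.07 and -0.04 by replicate number. On the negative side 2 of 33 had an unadjusted p under 0.05, beside 3.77% of all genes. In each population 17 of 33 fell and 1 rose. Of all genes, 19.6% fell and 22.2% rose in ALDH1+, and 14.8% fell and 17.4% rose in ALDH1-. TYMS, the thymidylate synthase, had the smallest p of the list. Its level was 264, 336 and 364 CPM in DMSO ALDH1- and 198, 230 and 307 CPM in EPZ5676 ALDH1-. In ALDH1+ it was 371, 381 and 467 CPM in DMSO and 222, 245 and 325 CPM in EPZ5676. TYMS fell in both populations, and its difference was -0.23 (-0.44 to -0.03; adjusted p = 0.511). For 32 of the 33 genes the interval of the difference lay inside 1.5-fold.

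Promoters of both lists are shown because late cell cycle genes are known to carry a pair of elements, the cell cycle homology region (CHR) and the CCAAT box, through which the DREAM and MuvB complexes and NF-Y act. This display was added after the values were seen. Motifs were searched on both strands, TTTGAA or TTTAAA for the CHR and CCAAT for the CCAAT box, in 300 bases around each start from RefSeq (GRCh38.p14). The table held 27 of the 32 G2 and mitosis genes and 29 of the 33 replication genes. The 250 bases before the start follow for CDK1 (chr10:60778081-60778330, plus strand), HMMR (chr5:163460382-163460631, plus strand) and TYMS (chr18:657403-657652, plus strand), the genes of each list with the smallest p that the table held. Capitals mark either motif on either strand, so that TTCAAA and ATTGG are the reverse complements.
CDK1: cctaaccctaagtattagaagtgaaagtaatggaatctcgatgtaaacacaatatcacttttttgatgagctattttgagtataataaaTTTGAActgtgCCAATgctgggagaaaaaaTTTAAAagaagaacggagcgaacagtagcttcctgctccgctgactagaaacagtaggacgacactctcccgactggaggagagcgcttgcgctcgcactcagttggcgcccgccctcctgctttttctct
HMMR: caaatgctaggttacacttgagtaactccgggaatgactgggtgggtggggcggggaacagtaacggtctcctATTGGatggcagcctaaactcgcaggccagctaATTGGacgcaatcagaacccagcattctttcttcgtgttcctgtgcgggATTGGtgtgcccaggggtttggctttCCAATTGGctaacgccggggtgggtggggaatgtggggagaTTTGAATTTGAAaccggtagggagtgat
TYMS: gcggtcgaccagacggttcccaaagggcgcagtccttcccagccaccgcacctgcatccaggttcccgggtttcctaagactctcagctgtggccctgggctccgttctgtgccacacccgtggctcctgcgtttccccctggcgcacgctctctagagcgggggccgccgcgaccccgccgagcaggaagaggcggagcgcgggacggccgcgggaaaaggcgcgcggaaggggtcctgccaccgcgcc
CDK1 has 2 CHR matches and 1 CCAAT match in this stretch, HMMR has 2 and 5, and TYMS has 0 of each. Of the 27 G2 and mitosis promoters, 22 held a CHR match (81.5%), against 3 of the 29 replication promoters (10.3%) and 24.3% of all 27305 promoters of the table. The CCAAT box was in 77.8%, 65.5% and 35.7%, and both motifs were in 63%, 6.9% and 9.49%. A match is a description of the letters, and no binding was measured here. The shares follow from which genes a list holds, whatever their difference in response. A link between the motifs and that difference was not tested.

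ATF4 is a transcription factor that cells use to raise amino acid supply under stress. Of the 22 measured genes of the ATF4 and unfolded protein response list, 17 were positive, with a median of 0.14, and 4 had an unadjusted p under 0.05, beside 5.19% of all genes on the positive side. That count was 2 without replicate 1 of every group, 9 without DMSO ALDH1+ replicate 3, and 10 without DMSO ALDH1- replicate 2, without replicate 3 of every group or without the filter on low counts. These 4 are SLC7A5, a transporter of large neutral amino acids (0.71; 0.37 to 1.06), ASNS, the asparagine synthetase (0.60; 0.19 to 1.00), and the serine synthesis enzymes PSAT1 (0.51; 0.17 to 0.86) and PHGDH (0.38; 0.07 to 0.68). Chaperones and stress sensors of the same list were near 0: HSPA5 at 0.04, HERPUD1 at 0.01, ATF3 at -0.02 and ATF4 itself at -0.04. The list median was 0.42, 0.08 and -0.09 in replicate numbers 1, 2 and 3, and 4 genes were positive in all 3, beside 2636 of all genes (16.1%).

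ALDH1L2, a mitochondrial folate enzyme of the aldehyde dehydrogenase family, had the smallest p of all genes tested. In ALDH1- cells its level was 72.5, 42.4 and 45.5 CPM in DMSO and 51.7, 52.6 and 40.2 CPM in EPZ5676. In ALDH1+ cells it was 29.4, 30.4 and 21.5 CPM in DMSO and 52.1, 54.2 and 41.0 CPM in EPZ5676. The 3 DMSO ALDH1+ libraries were the lowest of the 12, and the other 3 groups overlap. ALDH1L2 rose by 0.87 in ALDH1+ (adjusted p = 2.5e-05), and its effect in ALDH1- was -0.14 (adjusted p = 0.41). The difference was 1.01 ± 0.17 (SE; 0.65 to 1.37; unadjusted p = 2.1e-05; adjusted p = 0.297), and 1.31, 0.52 and 1.11 by replicate number.

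STC2, a secreted glycoprotein, and NIBAN1, a stress-responsive protein, were named after their values were seen. STC2 had 133, 77.0 and 57.0 CPM in DMSO ALDH1- and 181, 233 and 124 CPM in EPZ5676 ALDH1-. The ALDH1+ population had 37.7, 47.5 and 29.1 CPM in DMSO and 200, 247 and 101 CPM in EPZ5676. The treated libraries of both populations overlap, while the DMSO ALDH1+ libraries are the lowest of all 12. STC2 rose by 2.20 in ALDH1+ and by 1.02 in ALDH1-, both called, and the difference was 1.18 (0.68 to 1.68; adjusted p = 0.297). NIBAN1 rose by 2.13 and 0.93, with a difference of 1.2 (0.74 to 1.66; adjusted p = 0.297). Both intervals include a 2-fold difference, and neither adjusted p passed.

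For these genes the gap between the populations was wider in DMSO than in EPZ5676. ALDH1+ minus ALDH1- was -0.98 in DMSO and 0.03 in EPZ5676 for ALDH1L2, -1.19 and -0.01 for STC2, -1.39 and -0.18 for NIBAN1, and -0.64 and 0.07 for SLC7A5. The cystine transporter SLC7A11 gave -0.91 and -0.18. Further transporters and a tRNA synthetase, named after their values were seen, had differences in response of 0.56 for SLC6A9, 0.55 for SLC1A4, 0.45 for SLC7A1 and 0.45 for GARS1, with adjusted p from 0.297 to 0.392. DMSO ALDH1- replicate 1 was the highest library of its group for ALDH1L2, STC2, NIBAN1, SLC7A5, ASNS and PHGDH. Without it the difference was 0.80 for ALDH1L2, 0.87 for STC2, 0.88 for NIBAN1 and 0.51 for SLC7A5, and the list median was 0.03. The list median was also 0.04 without replicate 1 of every group.

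**Figure D4:**
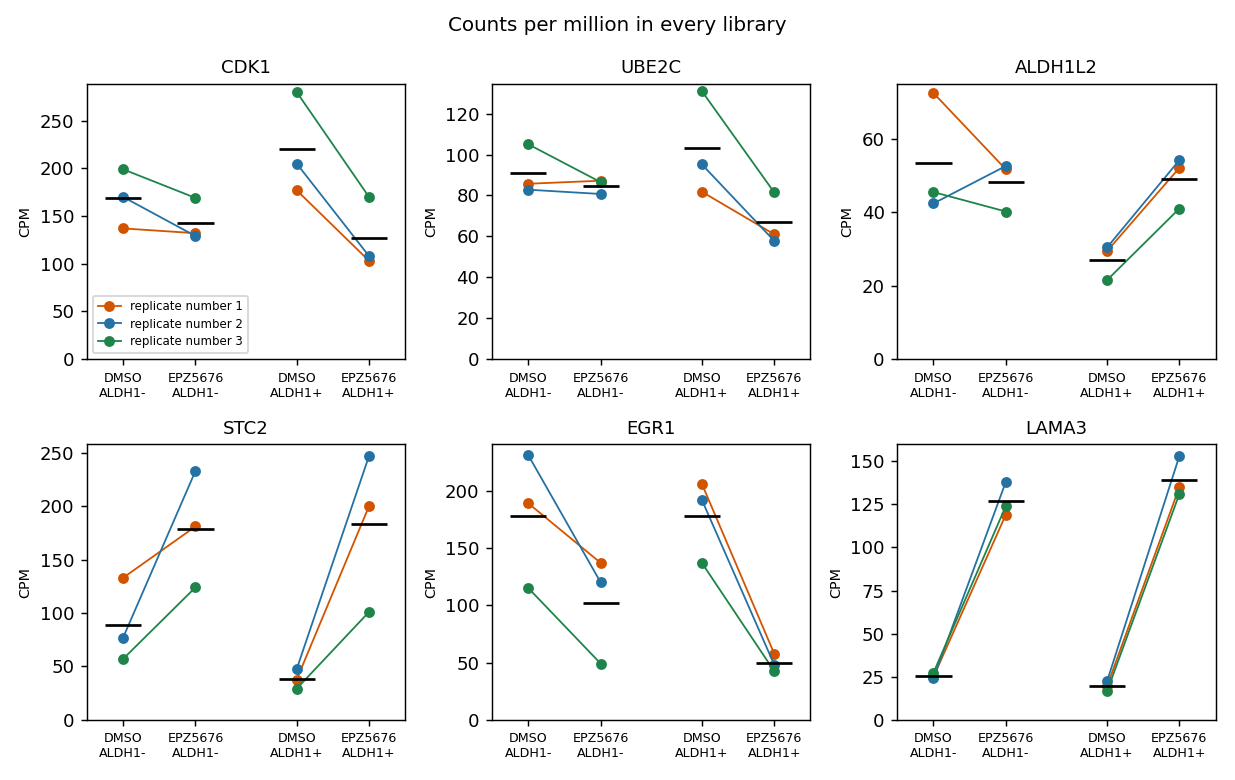
Level (CPM) of 6 genes in every library, with lines joining the DMSO and EPZ5676 libraries of a replicate number within a population and black bars at group means of 3 libraries. For CDK1 the lines of both populations go down, in ALDH1+ from 177 to 280 CPM in DMSO to 103 to 170 CPM in EPZ5676. The DMSO ALDH1+ libraries are the lowest of the 12 for ALDH1L2 and STC2, and LAMA3 rises in both populations.

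Genes of the basal epithelial layer, which build hemidesmosomes and the laminin that anchors cells to the basement membrane, mostly rose in both populations. Of 14 measured, 11 rose and 2 fell in ALDH1+, and 10 rose and 2 fell in ALDH1-. Of all genes, 22.2% rose and 19.6% fell in ALDH1+, and 17.4% rose and 14.8% fell in ALDH1-. The difference was positive for 13, with a median of 0.25 and 0.14, 0.06 and 0.41 by replicate number. In 7 of 14 it was positive in all 3 numbers, beside 16.1% of all genes. On the positive side 6 had an unadjusted p under 0.05, beside 5.19% of all genes. LAMA3, the alpha chain of that laminin, had 24.9, 24.1 and 27.3 CPM in DMSO ALDH1- and 119, 138 and 124 CPM in EPZ5676 ALDH1-. In the ALDH1+ population, levels were 19.4, 22.3 and 16.5 CPM in DMSO and 135, 153 and 131 CPM in EPZ5676. Treated and control libraries were far apart in both populations, and all 3 DMSO ALDH1+ libraries were below all 3 DMSO ALDH1- libraries. LAMA3 rose by 2.86 in ALDH1+ and by 2.32 in ALDH1-, and the difference was 0.54 (0.29 to 0.79; adjusted p = 0.297). LAMB3, the beta chain of the same laminin, had 0.36 (0.14 to 0.57). EGFR, also in the list, had 0.34 (0.08 to 0.59), of which replicate number 3 gave 0.80 and number 2 gave -0.04. Without replicate 3 of every group the list median was 0.07, and without replicate 2 it was 0.38.

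Keratinocyte differentiation genes, which form the cornified envelope of stratified epithelium, rose in 22 of 29 cases in ALDH1+ and 20 in ALDH1-. Of all genes, 22.2% rose in ALDH1+ and 17.4% in ALDH1-. The median effect of the list was 0.93 in ALDH1+ and 1.0 in ALDH1-, so by this measure the rise was not larger in ALDH1+. By the mean log2 level of the list, relative to DMSO ALDH1-, it was larger in each replicate number. That level was -0.06, 0.11 and -0.05 in DMSO ALDH1- and 1.07, 1.17 and 0.96 in EPZ5676 ALDH1-. In ALDH1+ it was 0.08, 0.31 and 0.1 in DMSO and 1.57, 1.65 and 1.29 in EPZ5676. The difference was positive for 20. Its median was 0.13, with 0.29, 0.13 and 0.19 by replicate number, and 12 were positive in all 3 numbers, beside 16.1% of all genes. An unadjusted p under 0.05 was reached by 4 on the positive side, CDSN, SPRR1B, FLG and TGM1, beside 5.19% of all genes. CDSN, the corneodesmosin gene, had 0.586, 0.884 and 0.499 CPM in DMSO ALDH1- and 1.47, 1.72 and 1.43 CPM in EPZ5676 ALDH1-. In ALDH1+ it had 0.764, 0.597 and 0.319 CPM in DMSO and 5.99, 5.92 and 1.92 CPM in EPZ5676. All 3 EPZ5676 ALDH1+ libraries exceeded every other library, and the 2 DMSO groups overlap. CDSN had the largest difference among genes whose mean log2 CPM was at least 1, at 1.77 (0.85 to 2.69; adjusted p = 0.297). SPRR1B, a small proline-rich envelope protein, rose by 2.15 in ALDH1+ and 1.56 in ALDH1-, with a difference of 0.59 (0.19 to 0.99). KRT13, a keratin of stratified epithelium, rose by 3.05 and 2.96, with a difference of 0.09 (-0.35 to 0.53).

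Inflammatory genes of the NF-kB pathway rose in many cases in both populations. Their median effect was 0.72 in ALDH1+ and 1.03 in ALDH1-. In ALDH1+ 13 of 21 rose, beside 22.2% of all genes, and in ALDH1- 16 rose, beside 17.4%. The difference was negative for 20 of 21, with a median of -0.26 and -0.27, -0.21 and -0.09 by replicate number. It was negative in all 3 numbers for 8, beside 12.9% of all genes. On the negative side 6 had an unadjusted p under 0.05, beside 3.77% of all genes. CXCL8, a neutrophil chemokine, rose by 1.83 in ALDH1+ and 2.52 in ALDH1- (difference -0.69; -1.35 to -0.02), and CXCL1 by 1.22 and 2.19 (-0.97; -1.83 to -0.11). TNF rose by 1.33 in ALDH1-, and its effect in ALDH1+ was 0.40. It was weakly expressed, at 0.691 to 4.16 CPM over the 12 libraries. NFKBIA, the inhibitor that NF-kB itself induces, fell by 0.24 in ALDH1+, and its effect in ALDH1- was 0.12. TNFAIP3, another feedback inhibitor, rose by 2.08 and 2.09, and C3 by 1.76 and 1.73, with differences of -0.01 and 0.03. With no replicate block 0 of 21 reached an unadjusted p under 0.05, and the list median was -0.15 without replicate 1 of every group.

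Genes of cholesterol synthesis and uptake fell in both populations, 22 of 25 in each, beside 19.6% of all genes in ALDH1+ and 14.8% in ALDH1-. The difference was negative for 21, with a median of -0.09, and 6 had an unadjusted p under 0.05, beside 3.77% of all genes on the negative side. STARD4, which carries cholesterol between membranes, had 13.2, 16.4 and 18.0 CPM in DMSO ALDH1- and 17.3, 17.9 and 18.7 CPM in EPZ5676 ALDH1-. ALDH1+ libraries had 16.2, 18.8 and 20.1 CPM in DMSO and 15.4, 13 and 16.1 CPM in EPZ5676. Every EPZ5676 ALDH1+ library was below every EPZ5676 ALDH1- library, while the DMSO groups overlap. STARD4 fell by 0.31 in ALDH1+ (adjusted p = 0.013), its effect in ALDH1- was 0.18 (adjusted p = 0.17), and the difference was -0.50 (-0.78 to -0.21; adjusted p = 0.326). The feedback regulator INSIG1 had -0.40 (-0.64 to -0.16), and the enzymes IDI1 and MSMO1 -0.32 and -0.37. The regulator SREBF2 had 0.05 (-0.14 to 0.25).

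EGR1, an immediate early transcription factor of growth factor signaling, had 189, 231 and 115 CPM in DMSO ALDH1- and 137, 120 and 49.1 CPM in EPZ5676 ALDH1-. The ALDH1+ population had 206, 192 and 137 CPM in DMSO and 57.8, 48.2 and 42.5 CPM in EPZ5676. The ALDH1+ groups do not overlap, and the ALDH1- groups do. EGR1 was lower in EPZ5676 than in DMSO in every replicate number of both populations. EGR1 fell by 1.84 in ALDH1+ and by 0.85 in ALDH1-, with a difference of -0.99 (-1.46 to -0.53; adjusted p = 0.297). Without EPZ5676 ALDH1- replicate 3, its lowest library in that group, the difference was -1.23 and the adjusted p was 0.014. Over the alternatives its adjusted p ranged from 1e-20 without a filter to 0.98 with no replicate block. The immediate early list had a median of -0.11, with 2 of 21 at an unadjusted p under 0.05 in each direction. Over all genes that share was 5.19% on the positive and 3.77% on the negative side. FOSL1, an AP-1 subunit, rose in both populations, with a difference of 0.29 (0.03 to 0.54).

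Among targets of TGF-beta and YAP, 16 of 22 rose in ALDH1+ and 17 in ALDH1-, beside 22.2% and 17.4% of all genes. The list median of the difference was 0.06. Within the list ANKRD1 and CCN2, both direct YAP targets, had differences of -0.61 (-1.03 to -0.18) and -0.44 (-0.77 to -0.12). Of the 22 differences, 14 were positive and 8 negative. Among luminal epithelial genes, SPDEF, a transcription factor of secretory cells, fell by 1.82 in ALDH1+ and by 1.28 in ALDH1-. Its level was 126, 129 and 118 CPM in DMSO ALDH1- and 60.0, 48.0 and 46.6 CPM in EPZ5676 ALDH1-. In ALDH1+ it was 145, 125 and 140 CPM in DMSO and 43.9, 33.7 and 39.8 CPM in EPZ5676. The treated ALDH1+ libraries were the 3 lowest of the 12, and the difference was -0.54 (-0.78 to -0.30; adjusted p = 0.297). PROM1, the gene of the stem cell antigen CD133, fell by 1.05 and 0.77, with a difference of -0.28 (-0.51 to -0.06). Among heat shock genes, the small chaperone HSPB1 fell by 0.59 in ALDH1+. Its effect in ALDH1- was 0.09 and the difference -0.68 (-1.0 to -0.36), while the list median was -0.05.

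The ALDH genes themselves were examined because the sort rests on ALDH1 activity. ALDH1A1 had 23.4, 23.7 and 28.6 CPM in DMSO ALDH1- and 13.9, 10.5 and 11.5 CPM in EPZ5676 ALDH1-. In the ALDH1+ population, levels were 33.3, 27.9 and 38.3 CPM in DMSO and 12.8, 9.41 and 13.2 CPM in EPZ5676. The DMSO populations overlap at 1 library each, and the EPZ5676 populations interleave. ALDH1A1 fell by 1.5 in ALDH1+ and by 1.08 in ALDH1-, with a difference of -0.42 (-0.72 to -0.12; adjusted p = 0.428). It was -0.63, -0.39 and -0.21 by replicate number. ALDH1A3, the isoform tied to the ALDH activity of many breast cancer lines, had 1370, 1360 and 1380 CPM in DMSO ALDH1- and 1420, 1410 and 1510 CPM in EPZ5676 ALDH1-. In ALDH1+ it had 1600, 1860 and 1470 CPM in DMSO and 1980, 2060 and 1820 CPM in EPZ5676. Every ALDH1+ library of a treatment exceeded every ALDH1- library of that treatment. ALDH1A3 rose by 0.25 in ALDH1+ (adjusted p = 0.011), its effect in ALDH1- was 0.08, and the difference was 0.17 (-0.05 to 0.39; adjusted p = 0.646). ALDH3A1 fell by 0.96 and 1.05, with a difference of 0.10 (-0.36 to 0.55). ALDH1A2 had a difference of 0.23 (-0.14 to 0.60). Over the 18 measured ALDH genes the median difference was 0.04.

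Retinoic acid, the product of ALDH1 enzymes, acts through nuclear receptors on genes such as CRABP2, DHRS3 and RARRES1. CRABP2, a carrier of retinoic acid, had 150, 201 and 189 CPM in DMSO ALDH1- and 89.8, 92.1 and 105 CPM in EPZ5676 ALDH1-. ALDH1+ libraries had 226, 234 and 309 CPM in DMSO and 84.6, 90.4 and 128 CPM in EPZ5676. The populations were apart in DMSO and overlap in EPZ5676. CRABP2 fell by 1.35 in ALDH1+ and by 0.91 in ALDH1-, with a difference of -0.44 (-0.71 to -0.17; adjusted p = 0.375). DHRS3, a retinal reductase, fell by 1.43 and 0.76, with a difference of -0.67 (-1.09 to -0.24), and RARRES1 fell by 2.27 and 1.60, also with -0.67 (-1.11 to -0.23). TGM2, another retinoid-responsive gene, rose in both, with a difference of 0.63 (0.06 to 1.21). Of 18 genes in the list, 10 had a negative and 8 a positive difference. At an unadjusted p under 0.05, 4 were negative and 1 positive, beside 3.77% and 5.19% of all genes. The median difference was -0.17, with -0.11, 0.02 and -0.20 by replicate number. The median effect of the list was -0.12 in ALDH1+ and -0.14 in ALDH1-.

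DOT1L itself, whose protein rather than transcript is the target of EPZ5676, had 75.8, 85.3 and 76.5 CPM in DMSO ALDH1- and 69.7, 73.0 and 57.7 CPM in EPZ5676 ALDH1-. The ALDH1+ population had 75.7, 68.7 and 60.8 CPM in DMSO and 64.0, 63.9 and 62.0 CPM in EPZ5676. DOT1L fell by 0.25 in ALDH1- (adjusted p = 0.014), and its effect in ALDH1+ was -0.11. The difference was 0.14 (-0.07 to 0.36; adjusted p = 0.701), and the 15 genes of the DOT1L complex list had a median of 0.09 with 0 at an unadjusted p under 0.05 in either direction. MYC fell by 0.52 in ALDH1+ and by 0.43 in ALDH1-, with a difference of -0.09 (-0.25 to 0.07). Programs that changed with treatment and had a median difference near that of all genes included interferon-stimulated genes (0.06 over 33, with 22 that rose in ALDH1+ and 21 in ALDH1-), MHC class I presentation (-0.04 over 17, with 12 that rose in each) and the HOXA cluster and cofactors (-0.02 over 16). Of all genes, 22.2% rose in ALDH1+ and 17.4% in ALDH1-. Hypoxia and glycolysis had -0.04 over 28, and p53 targets 0.10 over 18. Ribosomal protein genes had a median of -0.08 over 48, made of 0.08, 0.14 and -0.50 in replicate numbers 1, 2 and 3. Their mean level was highest in DMSO ALDH1+ replicate 3, and without replicate 3 of every group the median was 0.09.

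**Figure D5:**
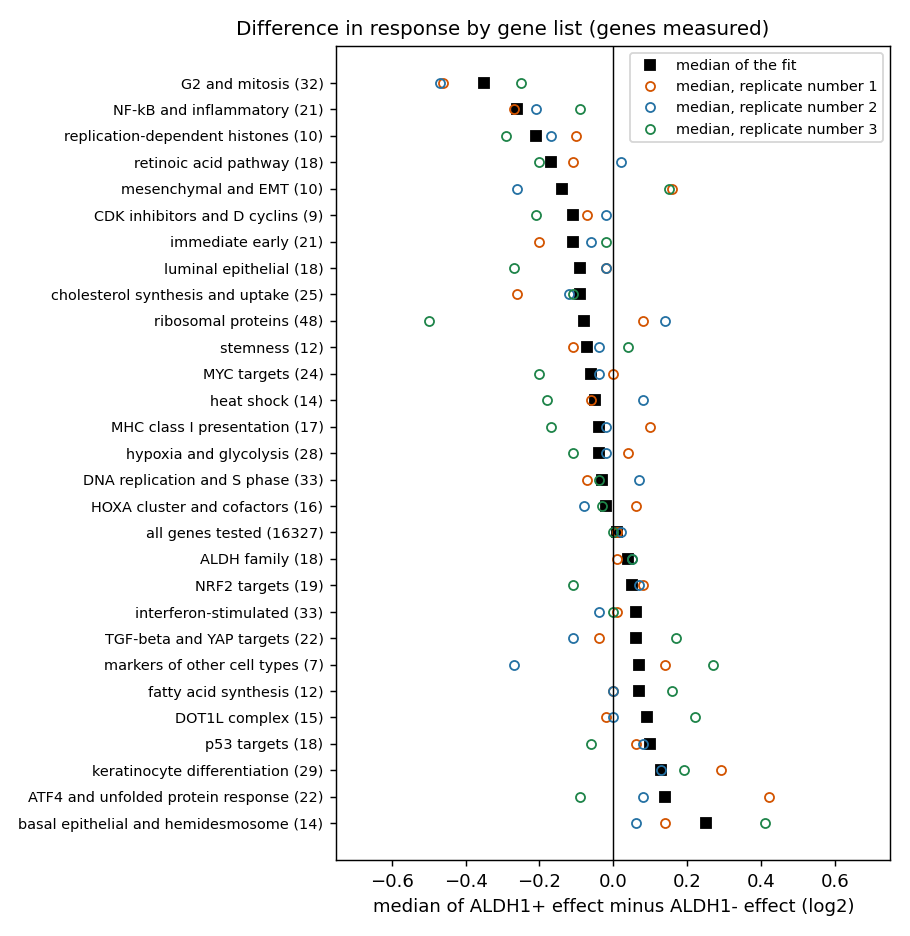
Median difference in response (log2) of each gene list with at least 7 measured genes, number of genes in brackets: squares give the fitted value, open circles the median in each replicate number. G2 and mitosis lies lowest at -0.35 with all 3 circles below 0, basal epithelial genes highest at 0.25 with all 3 above 0, and ribosomal proteins show 1 circle at -0.50.

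The next genes had the largest averaged responses among those whose interval lay inside 2-fold, so the bound was set by the choice. Larger responses lay outside it, such as PRR9, named after its values were seen, which rose by 5.85 and 5.02 with a difference of 0.83 (-0.12 to 1.78), and GAD1, named likewise, with 4.56 and 3.64 and a difference of 0.92 (0.44 to 1.41). FN1, the fibronectin gene, had 11.7, 11.6 and 11.7 CPM in DMSO ALDH1- and 133, 176 and 123 CPM in EPZ5676 ALDH1-. In the ALDH1+ population, levels were 12.7, 13.1 and 8.43 CPM in DMSO and 172, 184 and 131 CPM in EPZ5676. The treated groups overlap, and so do the controls. FN1 rose by 3.85 and 3.61, with a difference of 0.23 (-0.08 to 0.54). SERPINB2, a plasminogen activator inhibitor, rose by 3.68 and 3.67, with 0.01 (-0.81 to 0.82), an interval wide enough to hold a difference of more than 1.5-fold. TMPRSS11E, a membrane protease, rose by 3.49 and 3.46, with 0.03 (-0.43 to 0.49). GREM1, a BMP antagonist, and INHBA, an activin subunit, had 0.28 (-0.42 to 0.98) and 0.30 (-0.08 to 0.69). SPOCD1, MARCHF4 and FAT3 completed the rises, with differences of 0.07, 0.34 and 0.30. Of the falls, the homeobox gene EN1 fell by 2.95 and 2.81, with -0.14 (-0.63 to 0.35), and SYT12 by 2.82 and 2.35, with -0.47 (-0.78 to -0.16). TNFSF10, the gene of the death ligand TRAIL, and CA9, a carbonic anhydrase, had -0.36 (-0.90 to 0.19) and -0.24 (-0.83 to 0.35).

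Point estimates beyond 2-fold were rare and mostly of weakly expressed genes. There were 236 in all, of which 10 averaged a log2 CPM of at least 1. Beside CDSN, NIBAN1, STC2 and ALDH1L2, these included 5 genes named after their values were seen. On the positive side were HSPA6 (1.15; -0.48 to 2.78, an interval with both signs), ADRA1D (1.15; 0.16 to 2.14) and SLAMF7 (1.08; 0.18 to 1.98). On the negative side were GLYATL2 (-1.24; -1.88 to -0.59) and SH3BGR (-1.02; -1.66 to -0.38). Of these 5, GLYATL2 had the smallest unadjusted p, and its adjusted p was 0.297.

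Opposite changes were called for 2 genes. EFEMP1, an extracellular matrix protein, had 21.8, 25.1 and 23.8 CPM in DMSO ALDH1- and 26.8, 30.8 and 28.7 CPM in EPZ5676 ALDH1-. In ALDH1+ it had 28.6, 23.9 and 26.3 CPM in DMSO and 20.6, 20 and 24.2 CPM in EPZ5676. It rose by 0.29 in ALDH1- (adjusted p = 0.022) and fell by 0.29 in ALDH1+ (adjusted p = 0.017), with a difference of -0.58 (-0.85 to -0.31; adjusted p = 0.297). ZDHHC11, a palmitoyltransferase, rose by 0.36 in ALDH1+ (adjusted p = 0.0037) and fell by 0.25 in ALDH1- (adjusted p = 0.043), with a difference of 0.61 (0.34 to 0.88; adjusted p = 0.297). Both changes were of modest size, and both genes were named after their values were seen.

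Read the other way, the same contrast asks whether EPZ5676 changed the gap between the populations. In DMSO 1384 genes (8.48%) differed between ALDH1+ and ALDH1-, and in EPZ5676 75 genes (0.459%) did. Averaged over both treatments 1993 genes differed (12.2%). Their median gap was 0.29 in DMSO and 0.18 in EPZ5676, and 1571 of them (78.8%) had the larger gap in DMSO. The median change of the gap was -0.11, with -0.07, 0.06 and -0.32 in replicate numbers 1, 2 and 3. The median change was largest in number 3 and had the opposite sign in number 2. A difference between 2 numbers of calls is no test, and the test of the change in gap is the one with 0 calls.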

How the data were processed

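Total RNA of 12 sorted samples was sequenced with a directional kit. The authors deposited 1 table of raw counts for 57783 genes. Per the submitters' processing notes, reads were handled with Trim Galore and STAR on hg19. For the counter, the strand setting and the annotation the entry is: not given in the sources used here. Thus counts of overlapping, antisense or near-identical genes are uncertain. Gene lists were matched by symbol.

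Counts were fitted with edgeR 4.0.16 in R 4.3.3 (quasi-likelihood F test, TMM factors, filterByExpr by group, a term per group and the replicate number as a block). The filter kept 16327 genes, over which p-values were Benjamini-Hochberg adjusted with a threshold of 0.05. Standard errors and 95% intervals come from the same fit. CPM are TMM-scaled, and log2 CPM use a prior count of 2. Alternatives used DESeq2 1.42.0, limma 3.58.1, other scalings and filters, no block, thinned counts and left-out libraries. The script was tested on simulated data.

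Library totals were 24348594 to 80195050 counts. Over 12354 genes, deviations from group means were correlated between libraries. For the 18 same-numbered pairs r was 0.17 to 0.65, against -0.66 to 0.22 for 36 pairs with different numbers. Subtracting group means lowers the second range wherever the first is positive, so the gap is partly arithmetic. In 36 of 36 cases of a library and another group, the library of the same number correlated best. The numbers were therefore taken to pair the libraries, as a hint from the data.

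The named genes are DOT1L, ALDH1A1, ALDH1A2, ALDH1A3, ALDH3A1 and MYC, called genes (there were none), the 8 largest rises and 4 largest falls of the averaged effect averaging a log2 CPM of at least 1 and an interval inside 2-fold, and up to 2 members of each list with the smallest p. Any other gene was named after its values were seen, including further list members. The contrast and the lists were chosen with earlier results of these data known. Some genes are not reported here.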

Additional observations from a re-analysis of the deposited data

Results flagged for a closer look

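In 204 of all genes tested (1.25%), the 3 replicate pairs of ALDH1+ moved one way with EPZ5676 and the 3 pairs of ALDH1- the other way. Of the genes kept with their values by library, 5 were among them. Their difference in response was -0.50 for STARD4, a cholesterol carrier, -0.36 for NFKBIA, -0.27 for LYAR, a nucleolar protein, -0.58 for EFEMP1 and 0.61 for ZDHHC11. The difference itself was tested with edgeR's quasi-likelihood F test, and none passed the adjusted threshold.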

How the results depend on the processing

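Of 23 alternatives, 17 also called 0 genes for the difference in response. edgeR without a filter on low counts called 96 higher and 84 lower, with an infinite prior degrees of freedom, and DESeq2 called 11 and 14, all 25 also called without the filter. With 1 library or replicate number left out, calls ranged from 0 to 11 higher and from 0 to 13 lower. The highest counts came without DMSO ALDH1- replicate 2 (11 higher, 2 lower) and without replicate 3 of every group (4 higher, 13 lower). There were 2 lower without EPZ5676 ALDH1- replicate 3 and 2 higher without replicate 2 of every group.

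With no replicate block the difference had 0 calls in each direction, 360 positive and 237 negative genes at an unadjusted p under 0.05, and 12905 intervals inside 2-fold. Without the block 1476 genes fell in ALDH1-. With left-out libraries that count ranged from 1181 to 2708, and the count that fell in ALDH1+ from 2109 to 3274. Intervals inside 2-fold numbered 12273 to 13831 over all alternatives. The highest of these counts came without the filter, out of 33418 genes tested, against 16327 in the main fit. The cause of these shifts was not tested. Of the genes with a mean log2 CPM under 1, 29.6% had an interval inside 2-fold, and with counts thinned to the smallest library 13062 of all genes did.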
